A study of Mus musculus with 120 samples.

Results

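Acta2, Tagln, Myh11, Cnn1, Des, Pdgfrb, Rgs5, Cspg4, Mcam and Notch3 are genes by which pericytes, smooth muscle cells and myofibroblasts are commonly recognized. The 10 genes were taken by symbol and not by a rule on their values, although earlier results of these data were known when they were chosen. All 10 were present in both count tables, which share 55487 genes. Expression was measured by bulk RNA sequencing of the immunological niche (IN), a microporous polycaprolactone scaffold that sat under the skin on the back of female mice, became filled with host cells and could be removed as a biopsy. The INs were placed at 4 weeks of age, biopsies began at 6 weeks of age, and each removed IN was replaced by a new one.

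NOD/ShiLtJ (NOD) mice, which can develop autoimmune diabetes, were divided by outcome into progressors and nonprogressors. The 10 progressors gave 58 INs, taken at 6 weeks of age, at 7, 5, 3 and 1 weeks before diabetes onset and at onset. The 39 nonprogressor INs comprise 33 taken at 6, 10, 14, 18 or 22 weeks of age from 11 mice and 6 labelled by 31, 38 or 108 days after implantation. These 6 carry the mouse numbers 1 and 2 but no age, and the labels do not say whether those mice are nonprogressors 1 and 2 of the age series. NOR/LtJ (NOR) mice, which carry the same diabetogenic major histocompatibility locus and stay free of diabetes, served as controls with 23 INs from 5 mice at the same 5 ages. The labels name no transgene or drug, and mice of all groups carried scaffolds. An IN removed at 6 weeks of age came from the first set placed in its mouse. The paper describes weekly removal and replacement in rotation over the sites, so INs taken from 10 weeks of age on would be replacements. Their time in the body can also differ from that of the first INs. Age, time before onset, time in the body and the history of the implant site therefore cannot be told apart.

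The libraries came in 2 sequencing batches on different sequencers, with 74 libraries in batch 1 and 46 in batch 2. All NOR INs were in batch 1, progressors 1 to 5 were in batch 1 and progressors 6 to 10 in batch 2, except that all 8 INs from 7 weeks before onset were sequenced in batch 2. Nonprogressors in batch 2 were sampled at 6 and 14 weeks only. Library totals ranged from 4722396 to 56185434 counts, with a median of 30186412.5 in batch 1 and 36440355.5 in batch 2. The 18-week library of NOR mouse 5 had 85.7% of its counts on 1 ribosomal RNA gene, and in it Cnn1 had 0 counts and Myh11 had 1. Another gene, Rn7s2, took 12.8% to 30.5% of counts in the 4 nonprogressor libraries of 22 weeks. It took 17.5% in progressor 4 at 3 weeks before onset, and 13.9% and 14.0% in progressors 3 and 5 at onset. Levels are given below as CPM, the counts of a gene relative to the total of its library, scaled between libraries by the trimmed mean of M-values (TMM), and "changed" is used only for an adjusted p under 0.05 in the fit across all genes tested.

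Pericytes wrap capillaries and are held there by platelet-derived growth factor B from endothelial cells, which acts on the receptor encoded by Pdgfrb. Smooth muscle cells wrap larger vessels and contract through alpha-smooth muscle actin, smooth muscle myosin and the actin-binding proteins transgelin and calponin, whose genes are largely driven by serum response factor (SRF) with myocardin family coactivators. Myofibroblasts, the collagen-producing cells of the capsule that forms around an implant, make Acta2 and Tagln without the full smooth muscle program. Several of the 10 genes are also made elsewhere: Des in skeletal muscle, Mcam in endothelium, Cspg4 in Schwann cells, and Acta2, Myh11 and Cnn1 in mammary myoepithelium.

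Promoter sequence was available from RefSeq (GRCm38.p6) for 7 of the 10 genes, without entries for Tagln, Myh11 and Pdgfrb. The 250 bases before the start of Acta2 and of Rgs5 are shown because these genes are the most typical myofibroblast and pericyte markers in the set and because both were lower in later INs of progressors. The Acta2 stretch is chr19:34255374-34255623 on the minus strand, and the Rgs5 stretch is chr1:169655251-169655500 on the plus strand. Both run 5′ to 3′ and end at the base before the RefSeq start site. In the GENCODE annotation Rgs5 spans chr1:169655501-169695813, so its stretch lies upstream of the first exon, and Acta2 spans chr19:34241090-34255590, so most of its stretch lies inside the gene as GENCODE draws it.
Acta2: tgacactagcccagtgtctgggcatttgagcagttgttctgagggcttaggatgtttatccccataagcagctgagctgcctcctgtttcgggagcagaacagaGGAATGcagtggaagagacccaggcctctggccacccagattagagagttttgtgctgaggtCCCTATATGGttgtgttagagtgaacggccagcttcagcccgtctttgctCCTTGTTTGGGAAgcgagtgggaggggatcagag
Rgs5: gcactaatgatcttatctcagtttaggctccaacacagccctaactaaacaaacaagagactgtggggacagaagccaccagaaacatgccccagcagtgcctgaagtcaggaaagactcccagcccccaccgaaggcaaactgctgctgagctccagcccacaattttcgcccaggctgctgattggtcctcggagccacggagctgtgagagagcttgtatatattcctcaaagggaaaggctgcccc

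Capitals mark motif matches on either strand. The motifs searched were 4, in the window from 250 bases before to 50 bases after each start: the CArG box bound by SRF, a CArG-like form added after the strict form gave no match in these genes, TGGGAA (the core bound by RBPJ, the factor of Notch signalling) and CATTCC (the MCAT element of TEAD factors). The CArG-like form is CC, then 6 bases of which exactly 1 is neither A nor T, then GG. Acta2 held CArG-like matches that begin 84 and 34 bases before the start, a TGGGAA that begins 27 bases before it and overlaps the nearer CArG-like match, and a CATTCC on the opposite strand that begins 146 bases before it. Rgs5, Des, Cnn1, Mcam, Cspg4 and Notch3 held none of the 4. Of 32851 promoter windows of 300 bases, 1.63% held the CArG box, 8.50% the CArG-like form, 25.6% TGGGAA and 14.7% CATTCC, so TGGGAA and CATTCC are common letters. The windows of Notch3 and Mcam were rich in CpG, with 25 and 29 CpG dinucleotides, against 6 in those of Acta2, Cnn1 and Rgs5 and a median of 7 over all windows.

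Acta2 has close relatives that can take part of its reads. Its coding sequence of 1131 bases was 85.4% identical to that of Acta1 (skeletal muscle actin), 84.2% to Actg2 (smooth muscle gamma-actin) and 81.5% to Actg1 (a cytoplasmic actin). The longest run shared with any of them was 56 bases, at bases 910 to 965 of the Acta2 coding sequence, and is identical in Actg1.
Acta2 and Actg1: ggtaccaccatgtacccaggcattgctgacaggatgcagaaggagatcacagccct
The authors' estimated counts divide reads among such copies by a model, and the share of Acta2 counts that came from such reads was not tested.

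Per kilobase of exon, Acta2 had the highest mean level of the 10 genes over the 120 INs, 41.3 ± 19.7 CPM per kb (SD). It was followed by Pdgfrb at 32.8 ± 8.48, Des at 28.8 ± 53.7, Tagln at 22.1 ± 9.59, Rgs5 at 14.2 ± 8.14, Cspg4 at 10.2 ± 4.17, Mcam at 9.69 ± 4.52 and Notch3 at 8.23 ± 3.75 CPM per kb. Each step down to Notch3 was smaller than the larger SD of the neighbouring genes. Myh11, smooth muscle myosin heavy chain, lay below Notch3 by more than either SD at 2.37 ± 1.80 CPM per kb. Cnn1, calponin, was the lowest at 0.513 ± 0.380 CPM per kb. The INs thus held much Acta2 and Pdgfrb beside little Myh11 and Cnn1, the more restricted markers of differentiated smooth muscle. Of the list genes, all 12 endothelial, 9 fibroblast and 8 macrophage markers and 10 of 12 pericyte genes reached a mean of 1 CPM.

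The genes also differed in how far they varied between INs. Des, the intermediate filament of muscle cells, ran from 3.42 to 1632 CPM with a coefficient of variation of 186.5%. Pdgfrb was the steadiest at 25.9%, with a range of 72.0 to 402 CPM. The other 8 genes had coefficients of variation between 41.0% (Cspg4) and 76.0% (Myh11).

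The 10 genes fell into sets that moved together from IN to IN. After the mean of each group, time and batch was subtracted, Acta2 and Tagln, the SRF target that encodes transgelin, had a Pearson r of 0.905 over the 120 INs (Spearman's rho 0.903). This r was 0.86 within batch 1 and 0.945 within batch 2. The next genes most like Acta2 were Myl9, a myosin light chain of smooth muscle (r = 0.795), and Hs6st2, a heparan sulfate sulfotransferase (r = 0.74). For Tagln they were Hs6st2 (r = 0.79) and Actg2 (r = 0.76). These r values are descriptions: the INs of 1 mouse, the library scaling and the cell makeup of a scaffold are shared by all genes, and the 99th percentile of r over 15911 other genes was 0.484 for Acta2. That percentile differed between members, from 0.468 for Cspg4 to 0.848 for Des, and was 0.644 for Cnn1 and 0.747 for Myh11.

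Rgs5, a regulator of G-protein signalling that marks pericytes, followed endothelial genes more closely than Acta2. The genes most like it were Sparcl1, a matrix protein of vessels (r = 0.969), the endothelial adhesion molecule Pecam1 (r = 0.948) and the endothelial receptor Adgrl4 (r = 0.942). Mcam, the adhesion molecule CD146, was most like the endothelial cadherin Cdh5 (r = 0.934), endothelial nitric oxide synthase Nos3 (r = 0.904) and Robo4 (r = 0.902). Notch3, the Notch receptor of mural cells, was most like the protocadherin gene Pcdh1 (r = 0.919), Shank3 (r = 0.91) and the basement membrane laminin gene Lama5 (r = 0.909). Myh11 stood with Lama5 (r = 0.9), Notch3 (r = 0.891) and podocalyxin, Podxl (r = 0.89), rather than with Acta2 and Tagln. Against the mean of 12 endothelial genes the r was 0.924 for Rgs5, 0.895 for Mcam, 0.888 for Notch3 and 0.874 for Myh11, whereas it was -0.198 for Acta2 and -0.192 for Tagln.

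The other members stood apart from both sets. Pdgfrb was most like Ephb2, an ephrin receptor (r = 0.871), Olfml3 (r = 0.845) and Scarf2 (r = 0.821), and its r with the endothelial mean was 0.284. Des was most like Tpm2 (r = 0.978), Rtn2 (r = 0.968) and Cmya5 (r = 0.966), and had an r of 0.906 with the mean of 15 skeletal muscle genes. Cnn1 was most like Shroom1 (r = 0.818), Vill (r = 0.763) and the keratin gene Krt19 (r = 0.761). Its r was 0.589 with the mean of contractile smooth muscle genes and 0.571 with the 5 detected mammary and myoepithelial genes. It was 0.527 with smooth muscle transcription genes and 0.521 with PDGF and Notch signalling genes. Myh11 had an r of 0.628 with the mammary and myoepithelial genes, which was not particular to that list. Its r was higher with PDGF and Notch signalling (0.83), pericyte (0.771), adipocyte (0.737), contractile smooth muscle (0.715) and Schwann cell genes (0.701). Cspg4, the NG2 proteoglycan of pericytes and glial precursors, had no close partner, its 3 highest being Anxa11 (r = 0.681), Tulp4 (r = 0.679) and Nptxr (r = 0.666). Macrophage markers had an r of 0.404 with Acta2 and 0.512 with Tagln.

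**Figure D1:**
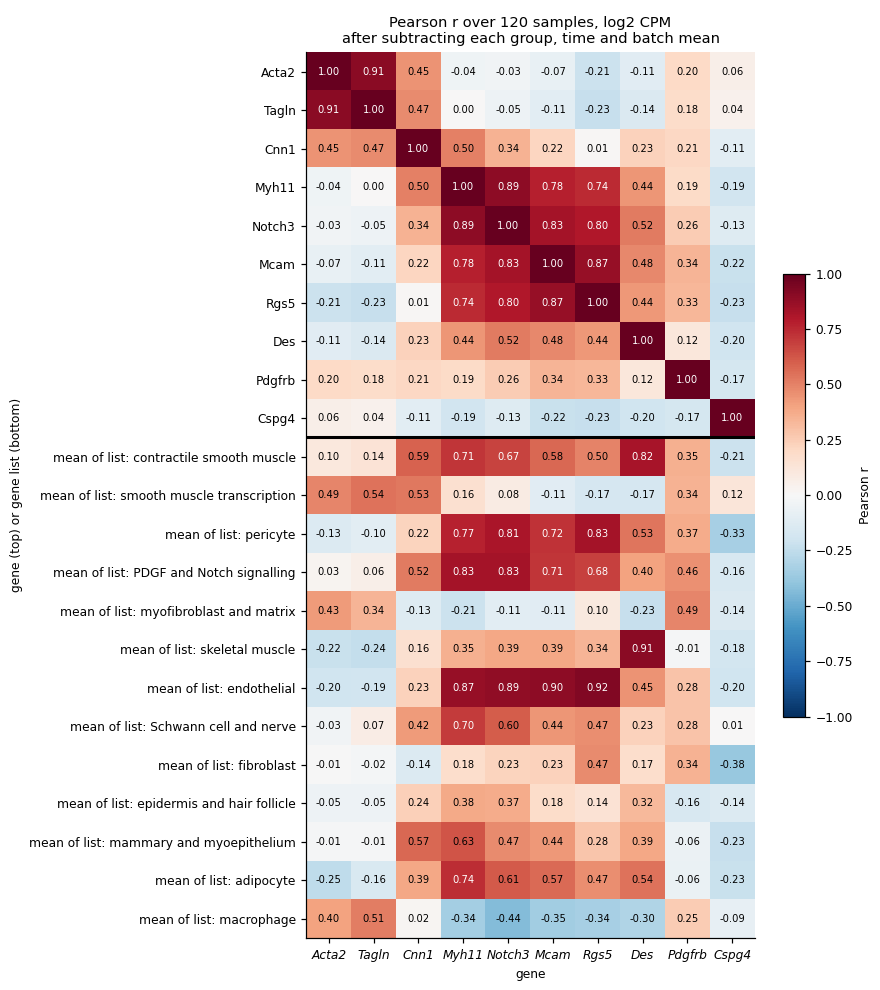
Pearson r between members and with the mean of each gene list, over 120 INs, of log2 CPM after the mean of each group, time and batch was subtracted. Acta2 and Tagln pair at 0.905, Myh11, Rgs5, Mcam and Notch3 share r of 0.743 to 0.891, and Des stands with skeletal muscle at 0.906.

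**Figure D2:**
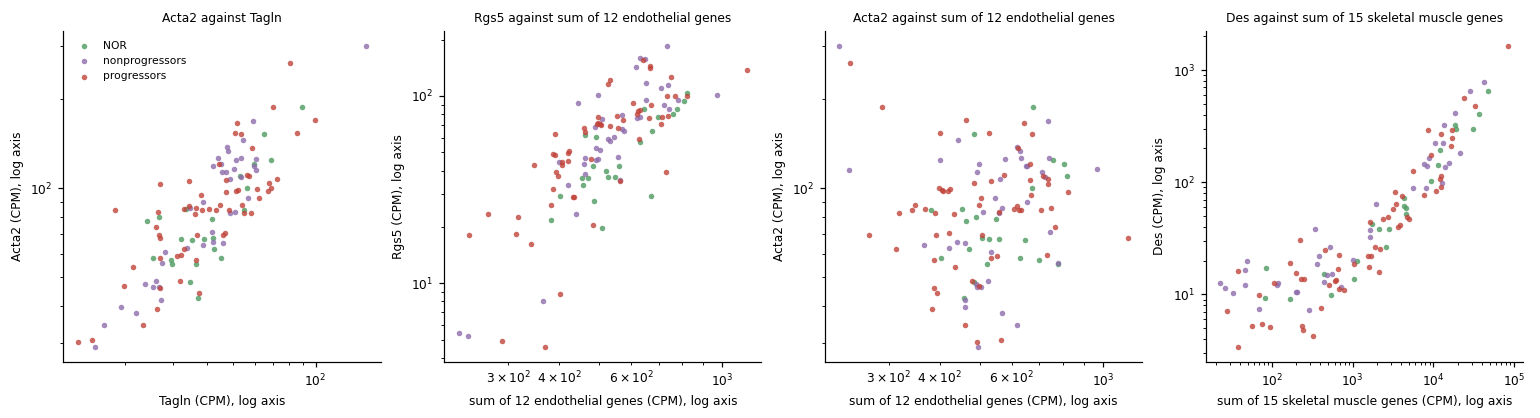
Levels in single INs on log axes (CPM), 1 point per IN: Acta2 against Tagln, Rgs5 and Acta2 against the summed 12 endothelial genes, and Des against 15 summed skeletal muscle genes. Rgs5 rises with the endothelial sum and Des with the muscle sum, while Acta2 shows no such slope against the endothelial sum.

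The likeness of Des to muscle genes bears on every Des value that follows. Skeletal muscle genes summed to between 38.4 and 85510 CPM in the 5 batch 1 progressor INs at 6 weeks of age and to between 70.2 and 678 CPM in the 5 of batch 2. Des in the same INs was 82.3, 16.2, 567, 24.7 and 1632 CPM in batch 1 and 22.3, 15.6, 12.8, 13.4 and 9.88 CPM in batch 2. All 15 skeletal muscle genes were detected with a mean of at least 1 CPM. The mean of 15 contractile smooth muscle genes, among them Tpm2, had an r of 0.825 with Des and 0.715 with Myh11. It had an r of 0.102 with Acta2 and 0.139 with Tagln. The part of muscle tissue in the levels of Des and of this list was not tested.

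The first question of the study was whether mice at risk differ from controls. In batch 1, which held both strains, NOD and NOR mice differed in Pdgfrb and Cspg4, with Pdgfrb lower and Cspg4 higher in NOD. In the 5 NOR mice the mean Pdgfrb level over all INs of a mouse was 202, 184, 192, 239.9 and 184 CPM. In the 9 NOD mice it ran from 133 through a median of 162 to 194 CPM. Only progressor 1, at 194 CPM, lay within the NOR range, and the log2 difference was -0.35 ± 0.08 (SE; adjusted p = 0.0174 by edgeR's quasi-likelihood test on 1 summed library per mouse). For Cspg4 the mouse means were 89.5, 135, 104, 107 and 109 CPM in NOR and 119 (lowest), 152 (median) and 189.6 CPM (highest) in NOD. NOR mouse 2 lay within the NOD range, the other 4 lay below it, and the log2 difference was 0.43 ± 0.11 (adjusted p = 0.0265).

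These were 2 of 10 members, where 8.98% of 23387 genes tested were called between the strains. Rgs5 was 69.3 ± 14.6 CPM in NOD (SD, n = 9 mice) and 51.5 ± 16.1 in NOR (n = 5), a difference that did not pass (log2 0.44 ± 0.18, adjusted p = 0.162). The remaining 7 members had adjusted p from 0.505 to 0.917. With 6-week INs only, the Pdgfrb difference was gone (log2 0.02, adjusted p = 0.944) and that of Cspg4 was 0.25 (adjusted p = 0.678). Cspg4 missed the threshold without NOR mouse 1, 3, 4 or 5 (adjusted p of 0.0740, 0.0749, 0.0604 and 0.0539), and Pdgfrb missed it without NOR mouse 4 (log2 -0.29, adjusted p = 0.0563).

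In the lists around these genes, the calls between strains, made for 8.98% of all genes, were all lower in NOD. Of 16 PDGF and Notch signalling genes 2 were lower in NOD: Rbpj, the transcription factor that Notch receptors act through (log2 -1.31, adjusted p = 1.01e-09), and the receptor gene Notch2 (log2 -0.18, adjusted p = 0.0189). In each of 3 lists 1 gene was lower in NOD, namely Kcnmb1 of 17 contractile genes (log2 -0.51), Mrtfa of 9 smooth muscle transcription genes (log2 -0.27) and Cox4i2 of 12 pericyte genes (log2 -0.59). The median log2 difference was 0.07 over the contractile genes and -0.05 over the pericyte genes, beside -0.0016 over all genes tested.

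In NOR mice, the control for age, no member was called between 6 weeks and the mean of 10 to 22 weeks. Acta2 at 6 weeks was 66.8, 80.0, 152 and 58.02 CPM in 4 mice. At 10 weeks it was 42.5, 62.3, 58.3, 84.6 and 55.6 CPM in 5 mice. At 18 weeks it was 110.2, 100.1, 187 and 77.7 CPM in 4 mice, the highest mean of the 5 ages. Rgs5 in NOR was 85.6, 60.3, 27.7 and 56.5 CPM at 6 weeks and 33.4, 36.4, 29.1, 21.7 and 39.8 CPM at 10 weeks. The means at 10 weeks were the lowest: Rgs5 averaged 57.5 CPM at 6 weeks and 32.1 at 10 weeks. It averaged 44.3, 64.8 and 65.8 CPM at 14, 18 and 22 weeks.

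Of the 10 members, 0 were called for first against later NOR INs by edgeR, 0 had an unadjusted p under 0.05 and 0 were called by DESeq2, beside 0.0357% of 19628 genes called. The largest value was that of Des, which was lower in later INs in 4 of 4 NOR mice (log2 -1.21 ± 0.81, adjusted p = 0.841). For any difference among the 5 ages the count of members was again 0 (adjusted p from 0.224 to 0.617; 8.24% of all genes called; 0 by DESeq2), and 1 member, Acta2, had an unadjusted p under 0.05 (p = 0.0496). With 4 first INs against 19 later ones, the SE of a member's log2 change was between 0.19 and 0.81.

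In NOD nonprogressors, Rgs5 was lower after 6 weeks of age in 9 of 10 mice, but the test across all genes was not passed. At 6 weeks Rgs5 was 117.7, 52.5, 78.8 and 111 CPM in batch 1, and 44.5 (lowest), 144 (median) and 184 CPM (highest) over 7 INs of batch 2. At 10 weeks it was 33.7, 8.07, 58.7 and 5.25 CPM in batch 1. At 14 weeks in batch 2 it ran from 5.44 through a median of 64.3 to 115 CPM over 6 INs. The INs of 18 and 22 weeks, all of batch 1, held more Rgs5 than most at 10 weeks. They ran from 57.2 to 94.6 CPM at 18 weeks and from 23.4 to 101 CPM at 22 weeks. The groups overlapped in both batches, although in batch 1 only 1 of 4 INs at 10 weeks exceeded the lowest at 6 weeks. The log2 change from 6 weeks to the mean of later ages was -0.95 ± 0.38 (adjusted p = 0.0655, edgeR with batch as a term).

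By that fit 0 of 10 members were called in nonprogressors (0 by DESeq2), where 24.1% of 21138 genes were, and 1 member, Rgs5, had an unadjusted p under 0.05. With the mouse as a block Rgs5 passed (log2 -1.15, adjusted p = 0.0331), and without TMM scaling, where the median of all genes was -0.19, both Rgs5 (log2 -1.09, adjusted p = 0.0264) and Pdgfrb (log2 -0.37, adjusted p = 0.0135) did. Negative changes that did not pass were those of Des (log2 -0.74), Mcam (-0.48), Acta2 (-0.34), Notch3 (-0.33), Myh11 (-0.25) and Pdgfrb (-0.20), with adjusted p from 0.140 to 0.691. Cspg4 was higher later in 9 of 10 mice at a log2 change of 0.26 ± 0.17 (adjusted p = 0.302).

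The 2 batches of nonprogressors differed for Des and Cnn1. Batch 2 INs held 7.46 (lowest), 11.8 (median) and 32.8 CPM (highest) of Des at 6 weeks and 16.4, 88.8, 136, 149, 98.5 and 181 CPM at 14 weeks. Batch 1 INs held 222, 89.5, 322 and 649 CPM of Des at 6 weeks and 13.03, 7.25, 139.6 and 10.6 CPM at 10 weeks. Later batch 1 INs spread widely, with Des up to 781 CPM at 14 weeks. It ran from 10.6 to 417 CPM at 18 weeks and from 14.9 to 165 CPM at 22 weeks. In batch 2 alone Des was thus higher later (log2 2.77, adjusted p = 0.000773), against -0.74 with both batches in the fit. Skeletal muscle genes in batch 2 summed to a mean of 508 ± 642 CPM at 6 weeks (SD, n = 7) and 12020 ± 7290 CPM at 14 weeks (n = 6).

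Cnn1 in the same batch 2 INs ran from 0.475 to 0.945 CPM at 6 weeks and was 2.21, 5.87, 3.05, 4.18, 1.58 and 1.15 CPM at 14 weeks, without overlap. Its log2 change within batch 2 was 2.01 (adjusted p = 0.000801), while with both batches it was 0.21 ± 0.35 (adjusted p = 0.710). The 8 mammary and myoepithelial genes in these INs summed to 0.275 to 1.19 CPM at 6 weeks and 0.641 to 213 CPM at 14 weeks. Cspg4 passed in batch 2 alone too (log2 0.31, adjusted p = 0.0425). The part of mammary tissue in the Cnn1 level was not tested.

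At 6 weeks of age, where the study asked whether outcome can be read early, no member was called between progressors and nonprogressors. Pdgfrb in batch 1 was 211, 233, 203, 178 and 242 CPM in progressors and 196, 215, 182 and 174 CPM in nonprogressors. Acta2 in batch 1 was 87.0, 120.4, 73.8, 152 and 103 CPM in progressors and 89.8, 113, 86.0 and 113 CPM in nonprogressors. Rgs5 in batch 1 was 80.5, 140.9, 100.3, 89.8 and 99.8 CPM in progressors. In each of the 3 genes the groups overlapped. The count was 0 of 10 members (0% of 20090 genes called by edgeR, and 0 members at an unadjusted p under 0.05 or by DESeq2), with log2 differences from -0.25 to 0.15 and an adjusted p of at least 0.941.

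In progressors, Acta2, Pdgfrb and Rgs5 fell from 6 weeks of age to the last weeks before onset, while no change was called for Tagln, Myh11 or Cnn1. Acta2 at 6 weeks was 165, 264, 106, 69.5 and 154 CPM in progressors 6 to 10 of batch 2, beside the 73.8 to 152 CPM of batch 1. At 5 weeks before onset it was 48.5, 39.3, 85.1, 84.7 and 187 CPM in batch 1 and 87.6, 92.8, 30.2, 69.4 and 109.6 CPM in batch 2. At onset it was 84.3, 94.8, 30.8, 85.2 and 54.3 CPM in batch 1 and 57.4, 84.6, 153, 62.2 and 82.6 CPM in batch 2. The ranges at 6 weeks and at onset overlapped in both batches, and in batch 2 the highest onset value stood alone above 84.6 CPM.

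Between these times, Acta2 was 81.6, 83.2, 136, 59.6 and 107 CPM in batch 1 and 82.2, 97.5, 97.7, 100.1 and 69.3 CPM in batch 2 at 3 weeks before onset. At 1 week before onset it was 84.5, 67.8, 85.8, 97.0 and 111 CPM in batch 1 and 169.5, 99.2, 58.8, 104 and 44.3 CPM in batch 2. The mean of the 4 late times was below the 6-week value in 7 of 10 mice, and the log2 change was -0.58 ± 0.20 (adjusted p = 0.0148 by edgeR's quasi-likelihood test with batch as a term). Within batch 1 the change was -0.33 (adjusted p = 0.354) and within batch 2 it was -0.80. Without progressor 7, whose 6-week IN held 264 CPM, the change was -0.42 (adjusted p = 0.0953).

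Pdgfrb fell by less but in more mice. At 6 weeks it was 211, 233, 203, 178 and 242 CPM in batch 1 and 199.7, 191, 163, 136 and 201 CPM in batch 2. At onset it was 159.7, 157, 81.9, 162 and 109 CPM in batch 1 and 141, 86.2, 104, 144 and 120.2 CPM in batch 2. In batch 1 every onset value lay below every 6-week value, and in batch 2 only progressor 9 at 6 weeks (136 CPM) lay within the onset range.

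At 5 weeks before onset Pdgfrb was 205, 158, 72.0, 162 and 127 CPM in batch 1 and 203, 123, 168, 196 and 141 CPM in batch 2. At 3 weeks it was 197, 132, 130.5, 99.8 and 169 CPM in batch 1 and 186, 199.8, 223, 142 and 254 CPM in batch 2. At 1 week it was 197, 146, 177, 122 and 186 CPM in batch 1 and 182, 184, 171, 128 and 185 CPM in batch 2. Before onset most batch 1 values lay below the lowest batch 1 value at 6 weeks, whereas most batch 2 values lay within or above the 6-week range. The mean of the 4 times was below 6 weeks in 9 of 10 mice (log2 -0.35 ± 0.11, adjusted p = 0.00912), with a change of -0.54 in batch 1 alone and -0.15 (adjusted p = 0.356) in batch 2 alone.

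Rgs5 varied most between single INs among the genes that fell. At 6 weeks it was 80.5, 140.9, 100.3, 89.8 and 99.8 CPM in batch 1 and 156, 18.1, 121, 23.5 and 115 CPM in batch 2. At 5 weeks before onset it was 46.4, 26.0, 4.58, 58.7 and 4.90 CPM in batch 1 and 42.9, 71.2, 70.6, 62.6 and 77.7 CPM in batch 2. At onset it was 84.4, 144, 35.4, 91.6 and 29.0 CPM in batch 1 and 31.8, 16.3, 8.74, 18.3 and 22.6 CPM in batch 2. In batch 1 all 5 values at 5 weeks lay below all 6-week values and the onset values again overlapped them, whereas in batch 2 progressors 7 and 9 were already low at 6 weeks.

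Rgs5 was 28.9, 67.7, 83.4, 39.2 and 77.9 CPM in batch 1 and 48.4, 44.6, 49.6, 37.3 and 69.9 CPM in batch 2 at 3 weeks. At 1 week it was 70.7, 138, 126, 100.4 and 74.9 CPM in batch 1 and 64.4, 51.1, 78.2, 20.5 and 39.3 CPM in batch 2. The mean of the 4 times was lower in 8 of 10 mice (log2 -0.81 ± 0.30, adjusted p = 0.0258). The endothelial markers had a mean sum of 691 ± 58.8 CPM at 6 weeks (SD, n = 5 INs) and 606 ± 192 later (n = 20 INs) in batch 1. In batch 2 the sum was 441 ± 177 (n = 5 INs) and 432 ± 93.0 (n = 20 INs), where later means 5 weeks before onset to onset. The r of Rgs5 was with the mean of their log2 levels, not with this sum. Among single endothelial genes more were called lower than higher, as given below. The Rgs5 call was lost with the mouse as a block (log2 -0.74, adjusted p = 0.0558), within batch 1 (-0.76, adjusted p = 0.158) and without progressor 6, 8 or 10 (adjusted p of 0.124, 0.0556 and 0.0571).

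In all, 3 of 10 members were called, all lower, where 39.5% of 21279 genes were called in either direction and 19.9% as lower, so the share of members was near that background. Tagln had a log2 change of 0.08 ± 0.20 (adjusted p = 0.782), Myh11 of 0.11 ± 0.38 (0.837) and Cnn1 of 0.38 ± 0.32 (0.352). Values for Notch3 (log2 -0.38 ± 0.22), Mcam (-0.41 ± 0.25) and Des (-0.97 ± 0.58) did not pass. Cspg4 was higher in 7 of 10 mice (0.39 ± 0.18, adjusted p = 0.0729). In a bulk sample, fewer cells of a type and less RNA of a gene per cell cannot be told apart.

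Cspg4 had its highest progressor levels at onset. There it was 143, 154, 199.8, 115 and 264 CPM in batch 1 and 71.5, 238, 199.8, 166 and 149 CPM in batch 2. At 6 weeks it was 85.7, 107, 126, 158 and 209 CPM in batch 1 and 73.5, 97.2, 71.0, 30.4 and 73.0 CPM in batch 2. In batch 2 only progressor 6 at onset lay within the 6-week range. In batch 2 alone the first-to-late change of Cspg4 was 0.69 (adjusted p = 0.0423).

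**Figure D3:**
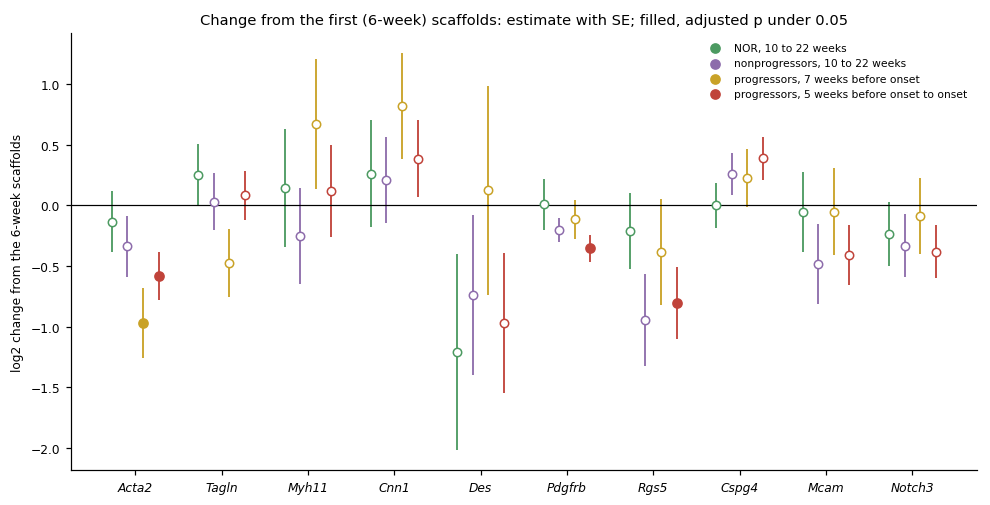
Log2 change with its SE of each gene from the first INs at 6 weeks of age to later INs, in NOR mice, nonprogressors, progressors 7 weeks before onset and progressors from 5 weeks before onset to onset, with filled points for an adjusted p under 0.05. Filled points are Acta2 at 7 weeks before onset (-0.97) and Acta2 (-0.58), Pdgfrb (-0.35) and Rgs5 (-0.81) in the late progressor INs.

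**Figure D4:**
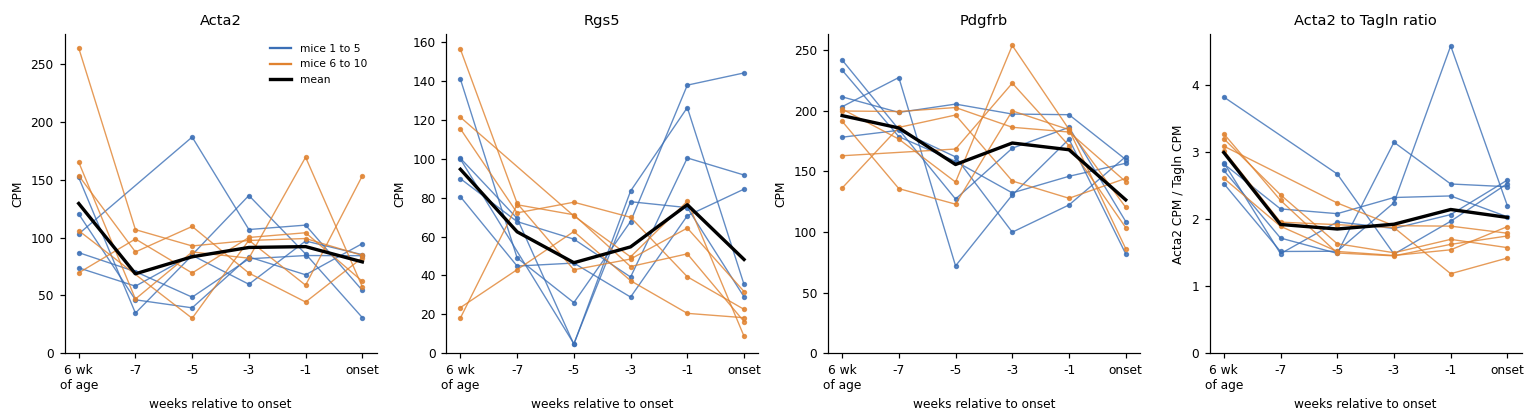
CPM of Acta2, Rgs5 and Pdgfrb and the ratio of Acta2 to Tagln in the progressors, 1 line per mouse from 6 weeks of age to onset (mice 1 to 5 blue, 6 to 10 orange, with all INs of 7 weeks before onset sequenced in batch 2). The lines cross widely for Rgs5, while the ratio is lower after 6 weeks in 10 of 10 mice on average.

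At 7 weeks before onset, Acta2 was already lower than at 6 weeks of age. The 8 INs held 34.7 (lowest), 64.3 (median) and 107 CPM (highest), against 69.5 to 264 CPM in the 10 INs at 6 weeks, so the groups overlapped. Acta2 was lower in 7 of 8 mice, and its log2 change was -0.97 ± 0.29 (adjusted p = 0.0177), the only call among 10 members where 12.5% of 21279 genes were called. Tagln was 19.8 (lowest), 35.9 (median) and 52.2 CPM (highest) at this time, with a log2 change of -0.48 ± 0.28 (adjusted p = 0.278).

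Rgs5 at 7 weeks before onset was between 43.0 and 77.1 CPM with a median of 68.5, and Pdgfrb between 136 and 227.3 CPM with a median of 185. Neither change passed (log2 -0.38 ± 0.44 and -0.11 ± 0.16). Cnn1 was high in 2 INs, 6.38 and 4.38 CPM, and lay between 0.462 and 0.903 CPM in the other 6. These INs of progressors 1 to 4 were sequenced in another batch than the same mice at 6 weeks, and with the mouse as a block the Acta2 change was -0.67 (adjusted p = 0.301). It also missed the threshold without progressor 4 (-0.85, adjusted p = 0.0697) or 6 (-0.84, adjusted p = 0.0826).

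Relative to Tagln, its closest partner, Acta2 was lower in later INs. This ratio was chosen after the values were seen and is given as a description. In progressors of batch 1 the ratio of Acta2 to Tagln CPM ran from 2.53 through a median of 2.82 to 3.82 at 6 weeks and from 1.48 through 2.22 to 4.59 later. In batch 2 it ran from 2.61 through 3.09 to 3.27 at 6 weeks and from 1.19 through 1.71 to 2.36 later, without overlap, where the later INs include those of 7 weeks before onset.

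In nonprogressors the Acta2 to Tagln ratio was 2.33 to 2.48 at 6 weeks and 1.55 to 2.36 later in batch 1, and 2.43 to 2.91 and 1.63 to 2.87 in batch 2. In NOR mice it was 1.89 to 2.995 at 6 weeks and 1.14 to 3.21 later. The mean later ratio was lower than at 6 weeks in 10 of 10 progressors (mean log2 -0.633, SD 0.344), 9 of 10 nonprogressors (-0.399) and 4 of 4 NOR mice (-0.346), and 7 weeks before onset in 8 of 8 progressors (-0.598). For progressors 1 to 4 the comparison with 7 weeks before onset crossed batches, and Tagln was called higher in batch 2, as given below.

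Relative to the endothelial sum, Rgs5 was lower later in 10 of 10 nonprogressors (mean log2 -0.96) and 9 of 10 progressors (-0.723), but in 2 of 4 NOR mice and 5 of 8 progressors at 7 weeks before onset. This ratio was likewise chosen after the values were seen. More single endothelial genes were called lower than higher in late progressor INs. The ratio to their sum thus does not show whether Rgs5 fell more than those genes. Mcam and Notch3 relative to the same sum were lower in 7 and 9 of 10 progressors and in 7 and 7 of 10 nonprogressors.

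In late progressor INs most fibroblast and matrix genes fell, in a comparison where 39.5% of all genes were called. Of 9 fibroblast markers 8 fell and none rose (median -1.36). Of 19 myofibroblast and matrix genes 14 fell and 2 rose, with a median log2 change of -1.10 beside 0.01 over all genes tested. The genes with the smallest p were the collagens Col5a1 (log2 -1.27) and Col1a1 (-1.25), the metalloprotease gene Adam12 (-1.42) and Cthrc1 (-1.96), a collagen-linked protein of activated fibroblasts. Summed matrix genes went from 71860 ± 19470 CPM at 6 weeks (SD, n = 5) to 40010 ± 12070 later (n = 20) in batch 1 and from 72460 ± 9132 (n = 5) to 30890 ± 7794 (n = 20) in batch 2. Here n counts INs, with several later INs per mouse.

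Of 17 contractile smooth muscle genes 6 fell and 0 rose (median -0.57), a share called below the 39.5% of all genes. They included caldesmon, Cald1 (log2 -0.72, adjusted p = 4.13e-07), smoothelin, Smtn (-0.57), Myl9 (-0.79) and tropomyosin 1, Tpm1 (-0.58). The contractile list followed Des more closely than Acta2 or Tagln, and the part of skeletal muscle in it was not tested. Of 9 transcription genes 5 fell and 2 rose (median -0.24), above that share. Tbx18, a factor of mural cells (log2 -0.996, adjusted p = 4.04e-09), Tead1 (-0.69) and Foxs1 (-0.55) fell, while the SRF coactivator Mrtfb rose (0.22).

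Among 12 pericyte genes 6 fell and 1 rose (median -0.65), beside the same 39.5% of all genes. Kcnj8, a channel subunit of pericytes (log2 -1.78, adjusted p = 1.41e-05), Cox4i2 (-0.94) and the Notch target Heyl (-1.30) fell, and the aminopeptidase gene Anpep, also made by myeloid cells, rose (0.41). The summed pericyte list was 1551 ± 255 CPM at 6 weeks (n = 5) and 1703 ± 260 later (n = 20) in batch 1 and 1088 ± 135 (n = 5) and 1583 ± 199 (n = 20) in batch 2, opposite in direction to its median. Of 16 PDGF and Notch signalling genes 5 fell and 4 rose, among the former the Notch ligand gene Jag1 (-0.85, adjusted p = 3.30e-09), Pdgfra (-0.70) and Hes1 (-0.70). Of 12 endothelial genes 6 fell and 1 rose (median -0.41).

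In nonprogressors, where 24.1% of all genes were called, 8 of 9 fibroblast markers fell (median -1.004) and 13 of 19 matrix genes fell and 2 rose (median -0.71). There 2 of 17 contractile genes were lower and 0 higher, below the share of all genes, and 2 of 12 pericyte genes were lower and 1 higher, near it. At 7 weeks before onset, with 12.5% of all genes called, 10 matrix genes fell and 1 rose (median -0.94) and 1 fibroblast marker fell (median -0.42). Of 17 contractile genes 2 fell, near that share, namely Smtn (-0.90) and Cald1 (-0.74). Of 9 transcription genes 3 fell, Tbx18 (-0.81), Tead1 (-0.54) and Foxs1 (-0.72).

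From 5 weeks before onset to onset, no member was called different among the 4 times. The lowest adjusted p values were those of Pdgfrb (0.190, unadjusted p = 0.0109) and Cspg4 (0.256, unadjusted p = 0.0279), and these were the 2 members with an unadjusted p under 0.05. By edgeR and by DESeq2 the count was 0 of 10, beside 0.235% of 21279 genes by edgeR. In batch 2 alone Pdgfrb passed (adjusted p = 0.0218), where the onset values of 86.2 to 144 CPM overlapped those of the earlier times, whose lowest was 123 CPM.

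Late INs of progressors and of nonprogressors were not called different in any member. The count was 0 of 10 by edgeR and by DESeq2, with 0 at an unadjusted p under 0.05, beside 0.526% of 22799 genes. The largest log2 difference was 0.47 ± 0.31 for Myh11 (adjusted p = 0.627), and that of Acta2 was -0.07 ± 0.16, of Pdgfrb -0.10 ± 0.09 and of Rgs5 0.12 ± 0.25. Ages of the 2 groups were not matched IN by IN.

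The first-to-later changes themselves were compared between groups by interaction terms. No member was called different between nonprogressors and NOR mice (0 of 10 by edgeR and DESeq2, 0 at an unadjusted p under 0.05, beside 0.00877% of 22799 genes). The largest difference was that of Rgs5, -0.9995 ± 0.60 on the log2 scale, with changes of -0.95 in nonprogressors and -0.21 in NOR from their own fits (adjusted p of the interaction 0.644). Between progressors and nonprogressors the count of members was 0 as well (0 at an unadjusted p under 0.05, 0 by DESeq2, 0% of 22799 genes, adjusted p of at least 0.949). For Acta2 the difference was -0.17 ± 0.30, so the fall of Acta2 in progressors was not shown to exceed that in nonprogressors.

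Batch moved with 5 of the 10 members. Batch 2 libraries of NOD mice were lower in Des (log2 -2.82 ± 0.45, adjusted p = 3.19e-08), Cspg4 (-0.68 ± 0.11, adjusted p = 3.76e-08), Notch3 (-0.56 ± 0.15, adjusted p = 0.000806) and Myh11 (-0.60 ± 0.26, adjusted p = 0.0392), and higher in Tagln (0.40 ± 0.13, adjusted p = 0.00512). These 5 of 10 members compare with 66.1% of 22799 genes. All 15 skeletal muscle genes were lower in batch 2 (median log2 -2.82). Without TMM scaling, where the median of all genes was 0.24, Acta2 (0.37) and Pdgfrb (0.30) were called higher in batch 2 and Notch3 (-0.36) and Myh11 (-0.40) were not called. The Myh11 call was also lost with the size factors of DESeq2 (RLE scaling, adjusted p = 0.0522), without the filter on low counts (0.0536) and on leaving out progressor 2, 4, 5, 6, 7, 8 or 9 (0.0513 to 0.113). Batch, cohort of mice and sequencer cannot be told apart here.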

How the data were processed

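RNA of 120 INs was sequenced after ribosomal RNA depletion. Per the submitters' processing notes, reads went through cutadapt, FastQC, STAR, RSEM and MultiQC with the mouse genome GRCm38; versions are not given in the sources used here. The authors deposited 1 table of RSEM expected counts per sequencing batch (estimated counts per gene, not normalized), with 55487 genes in common. The expected counts entered the edgeR tests as deposited, without rounding, and were converted to integers for DESeq2. Tests used edgeR 4.0.16 in R 4.3.3 (filterByExpr, TMM, quasi-likelihood test) with Benjamini-Hochberg adjustment over all genes tested and a threshold of 0.05. CPM used TMM factors over all 120 libraries, and CPM per kb used exon lengths from GENCODE. Fold changes are log2, with an SE equal to the absolute change divided by the root of F. Levels for correlation were log2 CPM from edgeR, with 0.5, scaled to library size, added to each count. The changes of members within a mouse and the search for outlying INs used log2(CPM + 0.5).

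NOD and NOR mice were compared within batch 1 on counts summed per mouse. All other fits used single INs with batch as a term where both batches entered, so that INs of 1 mouse entered as separate samples, and fits with the mouse as a block were run beside them. The pairing comes from mouse numbers, which mark the same animal. Over 2000 genes the mean correlation of deviations was 0.0177 between INs of the same NOR mouse against -0.00387 between mice, 0.0129 against -0.00538 in nonprogressors and -0.00857 against 0.00156 in progressors. The 6 INs labelled by days after implantation carry mouse numbers but no age and entered no test. Within 1 group and time the replicates are separate mice. Where later times are pooled, n counts INs, several of them from the same mouse. The SEs of all fits but the strain test likewise treat INs as separate samples.

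The 10 genes and the gene lists were chosen with earlier results of these data known. Named genes are all members, of each list at most the 4 genes with the smallest p, and for each member the 3 genes with the highest Pearson r among 15912 genes with a mean of at least 1 CPM. Alternatives were DESeq2 1.42.0, scaling by DESeq2's size factors or by library totals alone, no filter on low counts, each batch alone, no batch term, the mouse as a block, and leaving out each mouse or the NOR library rich in ribosomal RNA. On simulated counts with 200 genes changed by a log2 of 1, the strain test recovered 78.5% with 2.5% false calls and the nonprogressor age test 78% with 4.3%. Counting precision is not the limit for most members, whose lowest count outside the NOR library rich in ribosomal RNA was 6 for Cnn1.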

Additional observations from a re-analysis of the deposited data

Results flagged for a closer look

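In 20 of 230 sets of 4 to 10 INs (1 gene in 1 group, time and batch), the highest or lowest IN lay farther from the others than Dixon's 95% limit allows. With chance alone about 1 set in 20 would pass that limit, so some of these are chance.

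Several came from the same INs. The 14-week IN of nonprogressor 5 (batch 2) was low in Myh11 (1.59 CPM), Des (16.4), Rgs5 (5.44) and Mcam (4.72), and the same IN held the highest Acta2 (300.4 CPM) and Tagln (153 CPM) of the series. The 22-week IN of nonprogressor 3 was high in Cnn1 (2.30 CPM), Pdgfrb (177) and Mcam (77.3), and its 18-week IN in Myh11 (31.99 CPM). That 22-week library had 24.3% of its counts on Rn7s2, and the 18-week library was the smallest of the series, with 4722396 counts. Progressor 8 was low in Tagln at 5 weeks before onset (13.49 CPM) and in Myh11 at 3 weeks (5.91), and high in Cnn1 at onset (2.53). Progressor 9 was low in Cspg4 at 6 weeks (30.4 CPM) and in Pdgfrb at 1 week before onset (128).

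The other INs stood apart in 1 gene each. They were nonprogressor 1 at 18 weeks in Tagln (28.2 CPM, low), NOR mouse 5 at 10 weeks in Myh11 (12.9, high), progressor 3 at onset in Myh11 (10.2, low), NOR mouse 3 at 10 weeks in Pdgfrb (197, low), progressor 3 at 7 weeks before onset in Cspg4 (183, high), nonprogressor 2 at 6 weeks in Mcam (31.6, low) and progressor 1 at 3 weeks before onset in Notch3 (28.2, low).

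The nonprogressor INs labelled by days after implantation entered no test. In 5 of their 60 member values the level lay above the range of the 20 batch 1 nonprogressor INs with an age, and all 5 were Pdgfrb: 224 CPM in 1 IN of day 31, 228 and 242 CPM at day 38, and 248 and 253 CPM at day 108, against 96.8 to 223 CPM.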

How the results depend on the processing

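Of 2730 member values recomputed over all comparisons and alternatives, 2678 kept their side of the threshold, 21 passed it only in the alternative, 28 no longer passed it and 3 reversed. Among the uncalled values 141 changed sign. The reversed ones were Pdgfrb between strains with 6-week INs only (log2 0.0231), Des with age in nonprogressors within batch 2 (2.77) and Des between late progressors and nonprogressors within batch 2 (-2.23, adjusted p = 0.0209). The number of members called went from 2 to 0 between strains with 6-week INs only. With age in nonprogressors it went from 0 to 3 in batch 2 alone, 3 without a batch term, 2 without TMM scaling and 1 with the mouse as a replicate block. It went from 1 to 0 at 7 weeks before onset with the block, from 3 to 1 in late progressors in batch 1 alone, and from 0 to 1 in batch 2 alone both among the 4 late progressor times and between late progressors and nonprogressors. The cause of these moves was not tested.

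Leaving out 1 mouse at a time, the number of members called ran from 0 to 2 between strains, 0 to 2 in nonprogressors, 0 to 1 at 7 weeks before onset, 2 to 4 in late progressors and 4 to 6 between batches, and stayed 0 to 0 in each of the other comparisons. Pairing by mouse number and the replicate block changed no other member call than those of Rgs5 and Acta2 given above. Without TMM scaling the median log2 change of all genes was -0.15 with age in NOR, -0.19 with age in nonprogressors, 0.12 between late INs, 0.18 for the difference of changes between progressors and nonprogressors and 0.24 between batches.

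Counts over all genes moved by more than 1.5 times as follows. Between strains 2101 genes became 403 with 6-week INs only. In NOR, 7 became 47 with DESeq2, 2 with the block, 15 without TMM, 12 without the filter, 12 without the library rich in ribosomal RNA and 0 to 54 without 1 mouse, and the 1617 genes that varied over the 5 ages became 3509 with DESeq2, 452 without TMM, 2601 without that library and 481 to 1487 without 1 mouse. In nonprogressors 5095 became 2711 in batch 1 alone, 9173 without a batch term and 2782 to 5367 without 1 mouse. At 7 weeks before onset 2670 became 4077 in batch 2 alone, 852 with the block and 1475 to 2933 without 1 mouse. In late progressors 8403 became 5318 in batch 1 alone. Among the 4 late times 50 became 378 with DESeq2, 0 and 934 in batch 1 and 2 alone, 26 with the block, 25 without TMM, 11 without a batch term, 25 without the filter and 6 to 416 without 1 mouse. Between late INs 120 became 279 with DESeq2, 10 and 360 in batch 1 and 2 alone, 187 without TMM, 3398 without a batch term, 36 without the filter and 16 to 201 without 1 mouse. For the differences of changes, 2 became 20 with DESeq2, 0 with the block, 0 without TMM, 1 without the filter and 0 to 4 without 1 mouse, and 0 became 27 with DESeq2, 2 in batch 1 alone and 0 to 17 without 1 mouse.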

Other observations

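In the 6 nonprogressor INs labelled by days after implantation, given in the order of mouse 1 and mouse 2, Acta2 was 46.3 and 29.2 CPM at day 31, 37.9 and 34.7 CPM at day 38 and 46.4 and 65.4 CPM at day 108. Tagln was 26.8 and 15.6, 22.0 and 16.9, and 25.5 and 45.8 CPM in the same INs. All 6 Acta2 values and 5 of the 6 Tagln values were below the medians of the series, 84.6 and 42.1 CPM. The 29.2 CPM of Acta2 is the lowest value of the series. Rgs5 was 45.4 and 46.0, 66.7 and 76.5, and 51.4 and 43.6 CPM. Des was 12.5 and 12.2 CPM at day 31, 224 and 144 CPM at day 38 and 12.2 and 18.6 CPM at day 108. The labels give no age for these INs, and no test was made.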
